A study of Mus musculus with 4 samples.

Results

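A set of 10 genes of protein folding and stress signalling in the endoplasmic reticulum were followed over cell types and libraries of mouse bone marrow: Hspa5, Pdia4, Fkbp11, Sdf2l1, Creld2, Manf, Dnajb9, Herpud1, Xbp1 and Ddit3. They were chosen by symbol as chaperones and genes of the unfolded protein response, with earlier results of these data known, and are 10 of the 31053 features in the count tables. All 10 symbols were found once each. Their levels are therefore given as a description, and none of them carries a test.

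Cells came from digested tibial marrow of adult mice of the C57Bl/6JCrl strain, sorted by DAPI exclusion for cells negative for the lineage panel, Ter119 and CD45, and 1 library was made for each of 4 groups. Controls were Vegfc flox/flox, and the Vegfc-deleted mice were RosaCreERT2;Vegfc flox/flox, so that all mice carried floxed alleles of Vegfc, a growth factor for vessels. The Cre recombinase sits at Rosa26, a locus active in nearly all cell types, and is switched on by tamoxifen, so the deletion was not limited to a cell type and the controls carried no Cre. The labels give tamoxifen in 5 gavage doses at 7 to 8 weeks of age for both genotypes in 1 place and for part of the samples in another. Whole-body irradiation at 4 Gy followed 2 weeks later in the irradiated groups, and marrow was taken after a further 7 days. Cells of 3 mice were pooled in either library without irradiation and cells of 2 mice in either irradiated library, although the labels also state that 3 mice of each genotype were irradiated, which leaves no replicate in any group. No difference between groups could be tested. Every interval is a 95% interval for counting error only, and the spread between mice is unknown. The question put to each gene was how its level differed between cell types, with irradiation in either genotype, and between genotypes.

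The endoplasmic reticulum folds, oxidises and glycosylates proteins bound for the membrane or the outside of the cell. When unfolded protein builds up there, the sensors IRE1, PERK and ATF6 raise chaperones and the machinery that removes misfolded chains, through the transcription factors XBP1, ATF4 and ATF6 itself. Plasma cells, osteoblasts and other secretory cells run parts of this programme at a high level without injury, whereas PERK and ATF4 can also induce Ddit3, which is linked to cell death under lasting stress.

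Values of the 4 libraries are given in a fixed order throughout: controls without irradiation, Vegfc-deleted mice without irradiation, irradiated controls, and irradiated Vegfc-deleted mice. Depth came to 67370522, 77284922, 54462123 and 64282090 UMIs in total, and 5058, 5211, 3837 and 4065 cells passed the filters, with medians of 7635.5 to 9874 UMIs per cell. The non-irradiated libraries shared 117 cell barcodes (1.57% and 1.512% of theirs), 21 of them among kept cells, whereas the other pairs shared 13 to 24. Leaving out all shared barcodes changed none of the counts of genes past 1.5-fold in the sinusoidal and LepR+ classes. Cells were grouped into 33 clusters, and clusters were named by marker genes. None of the 10 genes was among the 2000 variable genes used for clustering. The names stand for cells that resemble the type by those markers. Sinusoidal endothelial-like cells, the lining of the marrow's wide capillaries, numbered 313, 368, 1556 and 738, and held Stab2 at 1097 to 1704 UMIs per 1000000 UMIs of the class (CPM) and Flt4 at 615 to 1063 CPM. LepR+ stromal-like cells, the perivascular cells that make CXCL12, numbered 1215, 765, 474 and 190, and held Lepr at 1011 to 1827 CPM and Cxcl12 at 15789 to 24601 CPM. Most non-irradiated and irradiated cells of both classes lay in different clusters, so a shift within the class and a difference of kind cannot be told apart.

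The promoters of 4 of the genes are shown because the genes differed in level together or apart across classes and because the promoters of this response carry known motifs. RefSeq windows of the GRCm38.p6 build, from 250 bases before the transcription start to 50 after it, matched 9 of the 10 genes. Capitals mark matches on either strand to the endoplasmic reticulum stress element (ERSE, CCAAT and CCACG with any 9 bases between them), to ERSE-II (ATTGG and CCACG with any 1 base between them), to the core of the unfolded protein response element (TGACGTGG) or to the ATF4 composite element (TGATGNAAN). The windows are Hspa5 at chr2:34771840-34772139 on the plus strand, Creld2 at chr15:88819396-88819695 on the plus strand, Herpud1 at chr8:94386179-94386478 on the plus strand and Fkbp11 at chr15:98728149-98728448 on the minus strand.
Hspa5: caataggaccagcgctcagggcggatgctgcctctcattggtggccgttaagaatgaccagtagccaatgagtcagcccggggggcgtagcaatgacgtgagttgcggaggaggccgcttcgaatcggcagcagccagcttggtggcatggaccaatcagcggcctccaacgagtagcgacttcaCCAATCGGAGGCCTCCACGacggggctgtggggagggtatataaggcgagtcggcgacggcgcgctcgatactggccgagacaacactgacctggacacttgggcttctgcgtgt
Creld2: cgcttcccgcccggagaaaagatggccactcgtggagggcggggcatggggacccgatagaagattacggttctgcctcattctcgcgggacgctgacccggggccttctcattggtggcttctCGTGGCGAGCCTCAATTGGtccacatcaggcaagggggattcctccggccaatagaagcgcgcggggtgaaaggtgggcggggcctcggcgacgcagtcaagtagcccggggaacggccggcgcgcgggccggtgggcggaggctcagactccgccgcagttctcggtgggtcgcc
Herpud1: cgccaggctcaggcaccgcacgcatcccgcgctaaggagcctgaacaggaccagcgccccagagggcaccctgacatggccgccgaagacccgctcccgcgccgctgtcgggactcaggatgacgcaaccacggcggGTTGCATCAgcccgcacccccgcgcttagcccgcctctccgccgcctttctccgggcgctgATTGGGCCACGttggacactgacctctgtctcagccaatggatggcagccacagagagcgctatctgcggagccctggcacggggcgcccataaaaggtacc
Fkbp11: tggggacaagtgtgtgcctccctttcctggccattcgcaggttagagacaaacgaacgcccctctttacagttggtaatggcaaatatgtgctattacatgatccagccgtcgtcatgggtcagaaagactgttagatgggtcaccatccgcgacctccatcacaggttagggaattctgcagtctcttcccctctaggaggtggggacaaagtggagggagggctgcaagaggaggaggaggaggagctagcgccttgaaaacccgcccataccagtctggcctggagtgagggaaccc
Hspa5 held an ERSE whose first base lay at position -65 from the start, and Creld2 held 1 on the minus strand at position -126. Only 39 of 32851 windows of the build (0.119%) held an ERSE. Herpud1 held an ERSE-II at position -52, found in 12 windows (0.037%), and an ATF4 composite element on the minus strand at position -113, found in 1299 windows (3.954%). The unfolded protein response core was in 222 windows (0.676%) and in none of the genes' own. The windows of Fkbp11, Xbp1, Pdia4, Sdf2l1, Dnajb9 and Ddit3 held none of these letters, which says nothing of the factors that act there.

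The levels of the genes over cell classes came first, in the classes with at least 10 cells in a library. Summed over the 10 genes, sinusoidal endothelial cells held 3054, 2812, 3479 and 3475 CPM. LepR+ stromal cells held 2795, 2762, 2698 and 2527 CPM. Late erythroid cells held 564 to 737 CPM in the 4 libraries. Haemoglobin and granule RNA stood at 547226 to 601811 CPM in these cells and at 309659 to 397455 CPM in neutrophils. Such a share lowers the CPM of every other gene in both classes. Plasma cells, at 4623 CPM, had the highest sum of all classes, from 20 cells of the irradiated Vegfc-deleted library. The other libraries held 3 or 4 plasma cells each.

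**Figure D1:**
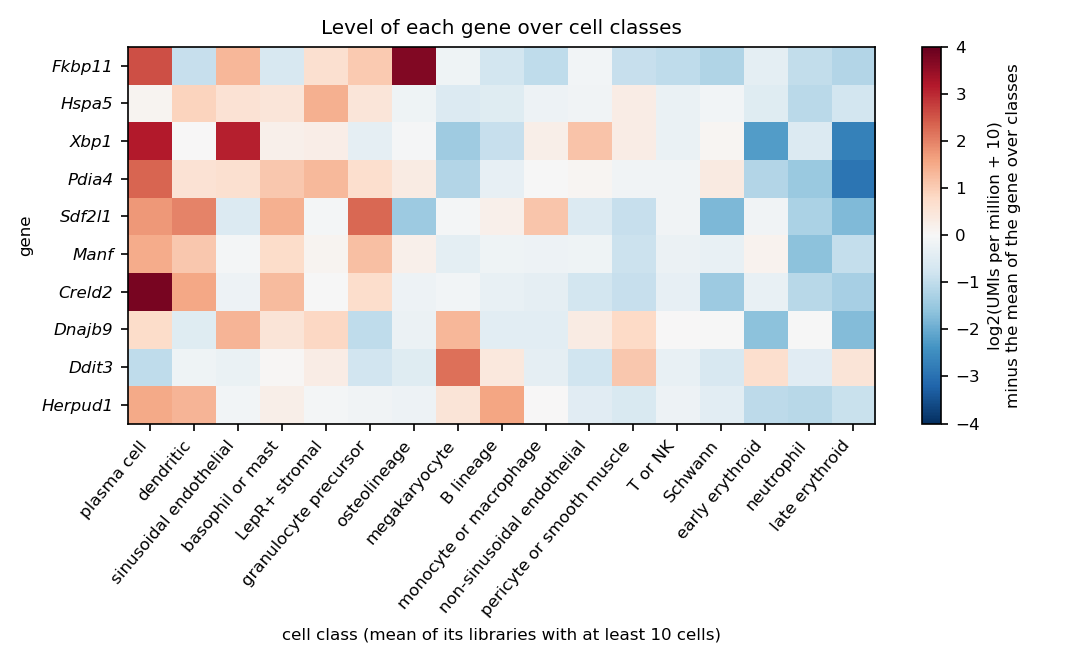
Level of each gene (rows) in each cell class (columns), as log2(CPM + 10) minus the mean of the gene over classes, each class being the mean of its libraries with at least 10 cells. Creld2, Xbp1 and Pdia4 are darkest red in plasma cells, with Xbp1 nearly as dark in sinusoidal endothelial cells, Fkbp11 in osteolineage cells and Ddit3 in megakaryocytes, and the late erythroid and neutrophil columns are mostly blue.

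Of the chaperones, Hspa5 (chr2:34771970-34777547), the central Hsp70 of the reticulum that also holds the stress sensors inactive, was highest in LepR+ stromal cells at 1790, 1792, 1754 and 1492 CPM. Dendritic cells followed with a mean of 1182 CPM over 3 libraries that ranged from 693 to 1694 CPM, and sinusoidal endothelial cells with 1218, 979, 866 and 737 CPM. The ranges of those last classes overlapped, whereas that of the stromal cells overlapped only with the dendritic one. Pdia4 (chr6:47796141-47813430), a disulfide isomerase, was highest in plasma cells at 406 CPM. LepR+ stromal cells came next at 161, 171, 217 and 221 CPM, against 0.791 to 1.20 CPM in late erythroid cells.

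Fkbp11 (chr15:98724366-98728198), a prolyl isomerase of the reticulum membrane found in secretory cells, was highest in osteolineage cells, at 212, 306 and 363 CPM in the libraries with at least 10 of these cells. Plasma cells held 128 CPM, and no other class exceeded 91.8 CPM in any library. Sdf2l1 (chr16:17130138-17132383), which works with Hspa5 and its J-domain partners, was highest in granulocyte precursors at 236, 244 and 359 CPM in the 3 libraries with at least 10 of these cells. The irradiated control library held 5 of them. Osteolineage cells held 19.5, 5.73 and 10.0 CPM of Sdf2l1, the reverse of their place for Fkbp11.

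Creld2 (chr15:88819646-88826683), a stress-induced protein with disulfide isomerase activity, stood at 643 CPM in plasma cells. Every other class stayed between 0.0 and 179 CPM in its libraries. Manf (chr9:106838312-106891979), a secreted stress-induced factor that binds Hspa5, was also highest in plasma cells at 553 CPM, but granulocyte precursors of the same library reached 602 CPM. Their mean over 3 libraries was lower, with the non-irradiated ones at 369 and 385 CPM.

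Of the regulators, Xbp1 (chr11:5520659-5525893), the transcription factor activated by IRE1 splicing and needed for plasma cells, was held at 1592 CPM in plasma cells and at 1030, 1118, 1925 and 2036 CPM in sinusoidal endothelial cells. The plasma cell level was above the mean of the sinusoidal libraries but below the level in the sinusoidal cells of its own library. Non-sinusoidal endothelial cells held 274, 503 and 351 CPM and no other class exceeded 439 CPM. Counts at the 3' end of the transcript do not separate the spliced from the unspliced form.

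By the mean over libraries, 4 of the 10 genes (Xbp1, Pdia4, Manf and Creld2) had their highest level in plasma cells. Immunoglobulin genes made up 59.8% of the UMIs of these cells in the irradiated Vegfc-deleted library, which lowers the CPM of every other gene. With immunoglobulin, haemoglobin and granule genes out of the total, 9 of the 10 genes were highest in plasma cells. Without doublet removal 2 were, but the cluster that then took the name held 395 shallow cells in place of 31 deep ones, with a median depth 0.312 instead of 3.58 times that of their samples, so this count describes another set of cells. The share of all genes that are highest in plasma cells was not computed. These counts therefore describe the 10 genes alone and do not set them apart from other genes.

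Dnajb9 (chr12:44205559-44210326), a J-domain partner of Hspa5 that holds back IRE1, was highest in sinusoidal endothelial cells at 295, 240, 166 and 92.4 CPM and in megakaryocytes at 34.8, 108, 401 and 233 CPM. The order of these classes depended on the library. Herpud1 (chr8:94386438-94395377), a membrane protein of the degradation machinery, was high in B-lineage cells at 508, 432, 171 and 98.6 CPM and in dendritic cells at 391, 182 and 197 CPM. Ddit3 (chr10:127290774-127296288), the factor also called CHOP, was highest in megakaryocytes at 29.7, 199, 440 and 263 CPM. It exceeded every other class in 3 libraries, whereas in the controls without irradiation early erythroid cells, at 127 CPM, were among the classes above it. The 3' end of Manf lies within Dcaf1 and that of Ddit3 overlaps Mars by 68 bases, both on the opposite strand. Use of strand in the counting was not given in the sources used here.

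Across 40 class and library profiles of at least 50 cells, 11 of the 45 pairs of the 10 genes had a Pearson r above 0.5 and 11 were negative. The closest pairs were Manf with Creld2 (0.855) and Hspa5 with Pdia4 (0.810). Ddit3 had a negative r with 7 of the other 9 genes, from -0.431 with Xbp1. The profiles of 1 library share its depth and handling, so these values describe the profiles only. Profiles of 8405 genes, the 10 among them, were compared with the mean profile of the 10. Outside the 10, the profile most like that mean belonged to Pdia6 (r = 0.919), followed by Erp44 (0.891), Hsp90b1 (0.881), Pdia3 (0.876), Dnajc3 (0.870), Sdf2 (0.860), Calr (0.853) and Bfar (0.849).

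In sinusoidal endothelial cells, irradiation went with higher Fkbp11 and Xbp1 and lower Ddit3, Dnajb9 and Herpud1 in both genotypes, and Hspa5, the central chaperone, was not among the higher genes. A gene is called higher or lower at a 1.5-fold ratio with at least 30 counts in the higher library. In control mice 2 of the 10 genes were higher, where 19.5% of all 10564 genes measured were, and 3 were lower, where 6.22% were. In Vegfc-deleted mice 4 were higher (background 15.4%) and 3 lower (background 7.43%). The median log2 ratio of the 10 genes was 0.19 in control and 0.35 in Vegfc-deleted mice, beside 0.21 and 0.16 over all genes measured. The 10 genes thus did not move as a block. Scaling by trimmed means (TMM) lowers every irradiation ratio by 0.15 and 0.16 on the log2 scale in these cells and by 0.17 in LepR+ stromal cells of both genotypes.

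Fkbp11 was 14.2, 16.1, 69.1 and 91.8 CPM in sinusoidal endothelial cells, from 44, 59, 1166 and 559 counts. Both irradiated libraries lay above both non-irradiated ones, and their intervals were far apart. The log2 ratio of irradiated to non-irradiated was 2.27 (95% interval 1.85 to 2.75) in control and 2.50 (2.12 to 2.92) in Vegfc-deleted mice. It stayed between 1.91 and 2.50 under all alternatives tried. Within the cluster that held most irradiated sinusoidal cells, Fkbp11 was 14.3, 20.8, 69.8 and 91.7 CPM, the non-irradiated values resting on 2 and 6 counts from 16 and 39 cells.

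Xbp1 rose less in ratio but from a high level, from 1030 and 1118 CPM to 1925 and 2036 CPM. Its log2 ratios of 0.90 (0.85 to 0.95) and 0.86 (0.81 to 0.92) had overlapping intervals in the 2 genotypes. In the cluster of most irradiated sinusoidal cells it was 1064, 1198, 1938 and 2046 CPM, the non-irradiated values coming from 16 and 39 cells. In the cluster of most non-irradiated ones it was 1030 and 1111 CPM without irradiation and 1870 CPM in the 17 cells of the irradiated control library. The difference thus held within both clusters in control mice. In Vegfc-deleted mice it was seen in the first cluster only, since the other held 5 of their irradiated cells.

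RNA of plasma cells was also higher in the irradiated sinusoidal endothelial cells. The summed level of its 6 listed genes was 15.5, 9.82, 34.9 and 77.2 CPM. All 4 of the genes that could be measured were higher in both genotypes (background 19.5% and 15.4%), and Iglv1 was at 0 in all libraries. At the ratios found within plasma cells, RNA at that level would bring 0.002, 0.002, 0.006 and 0.012 CPM of Fkbp11 and at most 0.196 CPM of Xbp1, beside the measured 69.1 and 91.8 CPM of Fkbp11 and 1925 and 2036 CPM of Xbp1 in the irradiated libraries. The sort for CD45- cells without lineage markers is meant to leave blood cells out, but many were present. Late erythroid cells made up 26.3% of the kept cells of the non-irradiated control library, and neutrophils 27.7% of those of the irradiated Vegfc-deleted library. The part of plasma cell RNA in the differences of Fkbp11 and Xbp1 was not tested.

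Creld2 in sinusoidal endothelial cells was 22.6, 27.3, 32.7 and 42.7 CPM, and Pdia4 was 105, 93.8, 132 and 148 CPM. Both irradiated libraries were above both others for each gene, with log2 ratios for Creld2 of 0.53 and 0.64 and for Pdia4 of 0.32 and 0.66, past 1.5-fold in Vegfc-deleted mice alone. With cells thinned to 1500 UMIs the ratio in control mice was -0.13 for Creld2 and -0.07 for Pdia4, without intervals. Their higher level in irradiated controls was thus not kept. The difference between the genotypes in these ratios was not tested, and TMM scaling put both genes under 1.5-fold. Manf was 160, 161, 176 and 215 CPM and stayed under 1.5-fold in either genotype.

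Hspa5 in sinusoidal endothelial cells was 1218, 979, 866 and 737 CPM. It was lower in both irradiated libraries, with log2 ratios of -0.49 (-0.54 to -0.44) and -0.41 (-0.47 to -0.35), under the 1.5-fold limit. The counting intervals of the 4 libraries did not overlap.

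Ddit3 was 68.7, 35.5, 17.7 and 11.3 CPM in sinusoidal endothelial cells. Each library stood below the one before it in this order. The log2 ratios for irradiation were -1.96 (-2.22 to -1.70) and -1.64 (-2.09 to -1.21). Dnajb9 was 295, 240, 166 and 92.4 CPM, in the same order, with log2 ratios of -0.83 and -1.38. Herpud1 was 119, 106, 69.8 and 58.3 CPM, again in that order, with log2 ratios of -0.77 and -0.87, the latter -0.55 with cells thinned to 1500 UMIs each.

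The clusters gave another picture for these 3 genes than for Fkbp11 and Xbp1. In the cluster of most irradiated sinusoidal cells, Ddit3 was 35.7, 10.4, 17.6 and 11.3 CPM and Dnajb9 was 143, 55.4, 168 and 92.9 CPM, the values without irradiation resting on 5 and 3 counts for Ddit3 and on 20 and 16 for Dnajb9. Neither gene was lower with irradiation in both genotypes there. Herpud1 was 78.5, 76.2, 70.1 and 58.7 CPM in that cluster, from 11 and 22 counts without irradiation. It was thus lower in both genotypes, but with overlapping intervals. In the cluster of most cells without irradiation, Ddit3 was 70.1 and 37.7 CPM without irradiation and 66.2 CPM, from 8 counts, in irradiated controls, and Herpud1 was 120, 109 and 116 CPM. Dnajb9 there was 304 CPM (95% interval 284 to 324) and 257 CPM without irradiation and 199 CPM (127 to 295, from 24 counts) in irradiated controls, lower by about the 1.5-fold limit. Ddit3 and Herpud1 did not differ beyond counting error between the control libraries in that cluster.

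Immediate early and heat shock RNA moved in the same direction as these 3 genes in sinusoidal endothelial cells. The 12 immediate early genes summed to 27487, 27055, 14031 and 6865 CPM, with 10 of 12 lower in control (background 6.22%) and 12 of 12 in Vegfc-deleted mice (background 7.43%). The 8 cytosolic heat shock genes summed to 3341, 2585, 2073 and 1658 CPM, with 6 and 5 lower. The part of either group in the fall of Ddit3, Dnajb9 and Herpud1 was not tested.

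**Figure D2:**
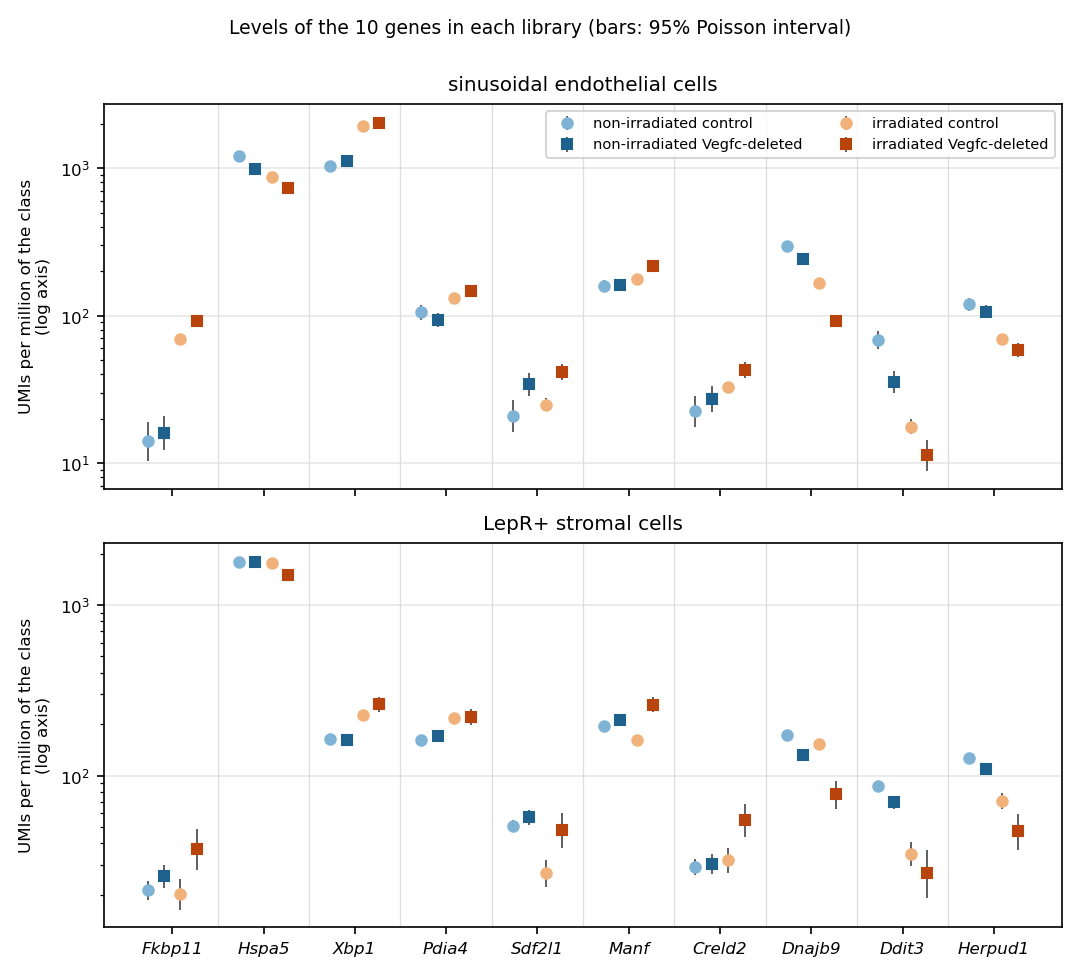
Level of each gene in CPM (log axis) in sinusoidal endothelial cells (top) and LepR+ stromal cells (bottom), 1 point per library, with bars for the 95% Poisson interval that covers counting error only. In the top panel the irradiated points of Fkbp11 (69.1 and 91.8 CPM) lie above the non-irradiated ones (14.2 and 16.1 CPM) and those of Ddit3 (17.7 and 11.3 CPM) below (68.7 and 35.5 CPM).

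In LepR+ stromal cells irradiation went with lower Ddit3 and Herpud1 in both genotypes, and Fkbp11 was not higher past 1.5-fold in either. In control mice 0 of the 10 genes were higher (background 17.4%) and 3 lower (background 10.8%), by size alone since no test was possible. In Vegfc-deleted mice 2 were higher (background 15.4%) and 3 lower (background 15.0%). The median log2 ratio of the 10 genes was -0.12 and 0.03 beside 0.15 and 0.04 over all genes.

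Ddit3 in LepR+ stromal cells was 86.8, 69.6, 34.8 and 26.98 CPM, and Herpud1 was 127, 110, 71.1 and 47.2 CPM. For both genes the irradiated libraries lay below the others, with log2 ratios of -1.32 and -1.35 for Ddit3 and of -0.83 and -1.21 for Herpud1. In the cluster of most stromal cells without irradiation Ddit3 was 84.9, 65.7, 19.2 and 19.2 CPM, from 913, 413, 7 and 2 counts, lower in the few irradiated cells there as well. In the cluster of most irradiated stromal cells Ddit3 was 0.0, 21.3, 35.0 and 27.9 CPM and Herpud1 was 51.9, 63.8, 71.0 and 45.6 CPM, not lower with irradiation in both genotypes, but the values without irradiation rest on at most 3 counts from 10 and 13 cells. Immediate early RNA again moved with them, at 33535, 34586, 15626 and 6278 CPM, and its part was not tested. Dnajb9 was 173, 133, 153 and 77.6 CPM, low in the irradiated Vegfc-deleted library alone.

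Hspa5 in LepR+ stromal cells, at 1790, 1792, 1754 and 1492 CPM, had log2 ratios of -0.03 and -0.26. Xbp1 was 163, 162, 227 and 262 CPM and Fkbp11 21.3, 25.8, 20.2 and 37.1 CPM. Xbp1 was thus higher in both irradiated libraries, past 1.5-fold in Vegfc-deleted mice (log2 ratio 0.69, or 0.41 with cells thinned to 1500 UMIs), whereas Fkbp11 stood apart in 1 library alone. The Fkbp11 ratio of the irradiated libraries to the others was 0.54 (0.06 to 0.97) in Vegfc-deleted and -0.07 (-0.44 to 0.27) in control mice on the log2 scale, intervals that lie below those in sinusoidal endothelial cells. Sdf2l1 was 50.5, 57.1, 26.7 and 47.9 CPM, lowest in irradiated controls (log2 ratio -0.91).

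Between genotypes, fewer differences passed the limit in sinusoidal endothelial cells than with irradiation. Without irradiation 1 of the 10 genes was higher in Vegfc-deleted mice (background 4.21%) and 1 lower (background 3.86%). With irradiation 1 was higher (background 2.38%) and 2 lower (background 6.16%). Sdf2l1 was the higher gene both times, at 21.0 against 34.1 CPM without and 24.9 against 41.5 CPM with irradiation, with log2 ratios of 0.70 (0.26 to 1.16) and 0.74 (0.51 to 0.97). Ddit3 was lower both times, with log2 ratios of -0.95 and -0.63, and Dnajb9 with irradiation, with -0.84. When cells were thinned to 1500 UMIs each, the Ddit3 difference with irradiation was 0.07.

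In LepR+ stromal cells without irradiation 0 of the 10 genes were higher in Vegfc-deleted mice (background 2.14%) and 0 lower (background 4.51%), by size alone. With irradiation 4 were higher (background 7.76%) and 1 was lower (background 13.2%). The higher genes were Creld2 at 31.9 against 54.6 CPM, Fkbp11 at 20.2 against 37.1 CPM, Manf at 162 against 260 CPM and Sdf2l1 at 26.7 against 47.9 CPM. The lower gene was Dnajb9 at 153 against 77.6 CPM. Median depth differed between these libraries, at 9360.5 and 6729.5 UMIs per cell, and with cells thinned to 1500 UMIs 1 gene was higher and 2 were lower. These comparisons share libraries with those for irradiation, so the values are not independent of them.

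Other genes of the pathways were read from lists beside the 10 genes. Over all genes measured in sinusoidal endothelial cells, 19.5% were higher and 6.22% lower with irradiation in control mice, and 15.4% and 7.43% in Vegfc-deleted mice. Of the other lumenal chaperones and isomerases in sinusoidal endothelial cells, 2 of 17 measured were higher and 0 lower with irradiation in control mice, and 5 of 16 and 0 in Vegfc-deleted mice, with median log2 ratios of 0.27 and 0.49 (0.21 and 0.16 over all genes). Hyou1, a large Hsp70-related chaperone, was higher in both, at 37.7, 33.0, 59.3 and 60.7 CPM. Of the degradation genes 0 of 10 were higher or lower in either genotype, and of the translocation and early secretory genes 0 of 18 and 1 of 17 were higher and 0 lower.

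The ATF4 targets were split in sinusoidal endothelial cells. In control mice 5 of 10 were higher (background 19.5%) and 3 lower (background 6.22%). In Vegfc-deleted mice 2 of 8 were higher (background 15.4%) and 3 lower (background 7.43%). Phgdh, an enzyme of serine synthesis, was 3.87, 1.64, 20.4 and 15.6 CPM, and Sesn2, which p53 also induces, was 19.0, 18.0, 53.1 and 34.6 CPM. Both were higher with irradiation in either genotype, while Ddit4 at 92.5, 116, 23.7 and 22.2 CPM and Ppp1r15a at 558, 560, 290 and 124 CPM were lower. In LepR+ stromal cells the same 4 genes had the same directions past 1.5-fold in both genotypes, and Nupr1 was lower too, at 562, 519, 218 and 322 CPM.

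The stress sensors and their factors in sinusoidal endothelial cells gave 0 higher and 0 lower of 5 in control mice and 0 higher and 1 lower in Vegfc-deleted mice. In LepR+ stromal cells 2 of 5 were higher (background 17.4%) and 0 lower (background 10.8%) in control mice. In Vegfc-deleted mice 0 were higher (background 15.4%) and 2 lower (background 15.0%). Canx, the lectin chaperone calnexin, was higher with irradiation in LepR+ stromal cells of both genotypes, at 186, 214, 320 and 399 CPM.

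Across all classes that could be compared, with at least 20 cells in both libraries, the genes again differed in direction. Herpud1 was lower with irradiation in 8 of 10 classes measured in control mice and in 8 of 11 in Vegfc-deleted mice, and higher in 0. Ddit3 was lower in 8 of 9 and in 8 of 10 classes. Dnajb9 was lower in 6 of 10 and 9 of 12. Over these classes a median of 15.1% and 14.4% of all genes were lower. Creld2 was higher in 8 of 11 classes of Vegfc-deleted mice and in 3 of 8 of control mice, and Xbp1 in 5 of 12 and 5 of 10, beside a median of 16.6% and 22.5% of all genes. Creld2 was lower in 1 class of control mice, the megakaryocytes, and Xbp1 in 2 classes of Vegfc-deleted mice, dendritic cells and megakaryocytes. The classes of 1 library share its handling and are not replicates.

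**Figure D3:**
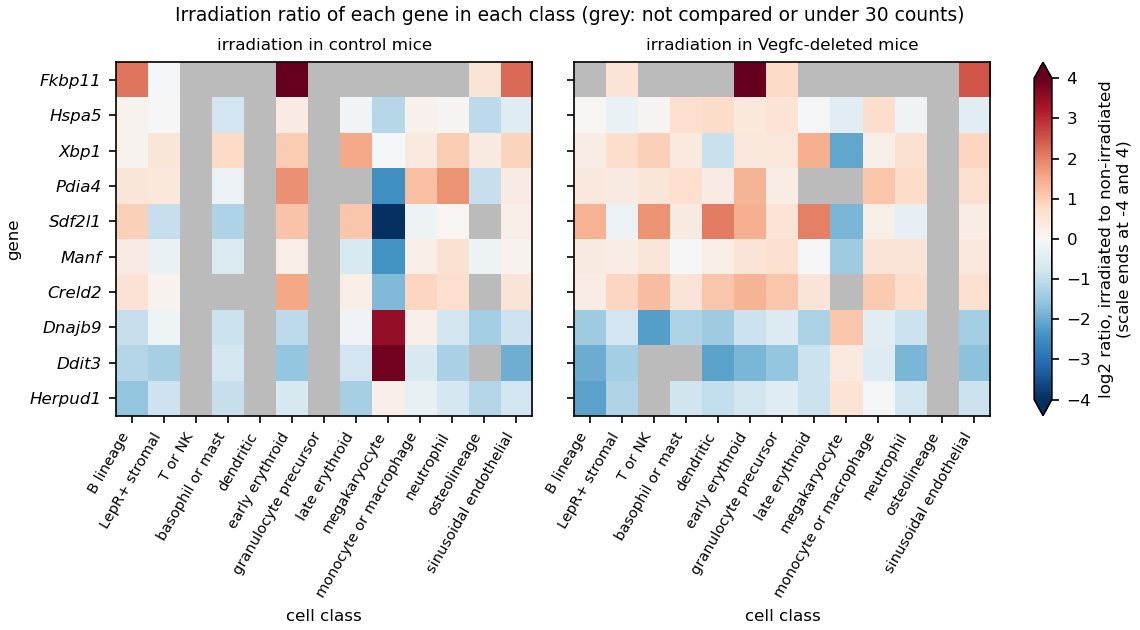
Log2 ratio of irradiated to non-irradiated CPM for each gene (rows) and class (columns) in control (left) and Vegfc-deleted mice (right), grey where a class was not compared or the gene had under 30 counts in the higher library. The rows of Herpud1, Ddit3 and Dnajb9 are blue in most classes, and Ddit3 and Dnajb9 are dark red in megakaryocytes of control mice (3.87 and 3.50). Fkbp11 is red in sinusoidal endothelial and early erythroid cells, in B-lineage cells of control mice and, paler, in granulocyte precursors of Vegfc-deleted mice.

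Megakaryocytes were the exception for Ddit3 and Dnajb9. Ddit3 was 29.7, 199, 440 and 263 CPM in these cells, with a log2 irradiation ratio of 3.87 (3.35 to 4.48) in control and 0.41 (0.02 to 0.77) in Vegfc-deleted mice. Dnajb9 was 34.8, 108, 401 and 233 CPM, with ratios of 3.50 and 1.11. The non-irradiated control library was the lowest for both genes, and the non-irradiated Vegfc-deleted library exceeded it as well, by 2.72 for Ddit3 and 1.62 for Dnajb9 on the log2 scale. Most of the chaperones were highest in that same library.

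Sdf2l1 in megakaryocytes was 107, 57.5, 4.50 and 14.9 CPM, Manf was 277, 170, 52.1 and 62.7 CPM, and Hspa5 was 823, 301, 371 and 221 CPM. All 3 genes were lower in the other libraries than in the non-irradiated control. Thinning cells to 1500 UMIs each leaves out cells with fewer UMIs and lets deep cells count no more than others. The irradiation ratio in control mice was then 1.68 for Hspa5 (-1.15 unthinned), 0.84 for Pdia4 (-2.44) and -0.54 for Sdf2l1 (-4.47). The direction thus changed for Hspa5 and Pdia4. The loss of shallow cells and the lower weight of deep ones cannot be told apart in these values. Ddit3 and Dnajb9 kept their direction in control mice, at 4.55 and 3.83. In control mice 2 of 9 genes measured were higher (background 42.0%) and 5 lower (background 31.5%) with irradiation, and in Vegfc-deleted mice 1 of 7 was higher (background 13.5%) and 3 lower (background 42.3%), so large differences were common among all genes of this class. Of its markers, Pf4 was 18278, 18774, 17135 and 39492 CPM and Gp9 was 1875, 1361, 753 and 1344 CPM, with median depths of 2826.5, 2615, 4400 and 4179 UMIs per cell, and the part of a change in the make-up of the class was not tested.

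Fkbp11 was also higher with irradiation in early erythroid cells, at 0.548, 0.506, 16.9 and 12.1 CPM from 11, 14, 33 and 74 counts. The irradiated libraries lay far above the others, with log2 ratios of 4.91 (3.93 to 6.08) and 4.54 (3.75 to 5.52). Thinned cells gave 1.69 and 6.09, but those ratios rest on fewer counts than the ones above and carry no interval. Here 5 of the 10 genes were higher (background 45.0%) and 3 lower (background 18.4%) in control mice, and 4 higher (background 33.6%) and 3 lower (background 17.4%) in Vegfc-deleted mice. Haemoglobin and granule RNA fell in the same comparison, from 157814 and 86160 CPM to 13884 and 8639 CPM, which raises the CPM of other genes. Different clusters held most of the class with and without irradiation. Among the clusters with at least 25 cells of each library, in that with median depths of 62761.5 to 77636 UMIs, Fkbp11 was 2.22, 0.906, 18.3 and 12.4 CPM and Ddit3 was 79.1, 70.6, 42.8 and 26.5 CPM, the first higher and the second lower in both irradiated libraries. In the other cluster with that many cells of each library, of median depths of 1567 to 3477 UMIs, Fkbp11 was 1.55, 3.82, 7.43 and 9.38 CPM from 1, 4, 1 and 3 counts, and Ddit3 was 38.7, 28.7, 29.7 and 28.1 CPM from 25, 30, 4 and 9 counts, with overlapping intervals for both genes. In B-lineage cells Fkbp11 was 1.35, 1.74, 6.34 and 6.60 CPM from 6, 9, 40 and 14 counts, with a log2 ratio in control mice of 2.13. Thinned cells gave 0.18 there, again from fewer counts and without an interval. In late erythroid cells Fkbp11 was under 0.51 CPM in every library. Granulocyte precursors, compared with irradiation in Vegfc-deleted mice only, held it at 33.0 CPM without and 56.3 CPM with irradiation, past 1.5-fold.

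**Figure D4:**
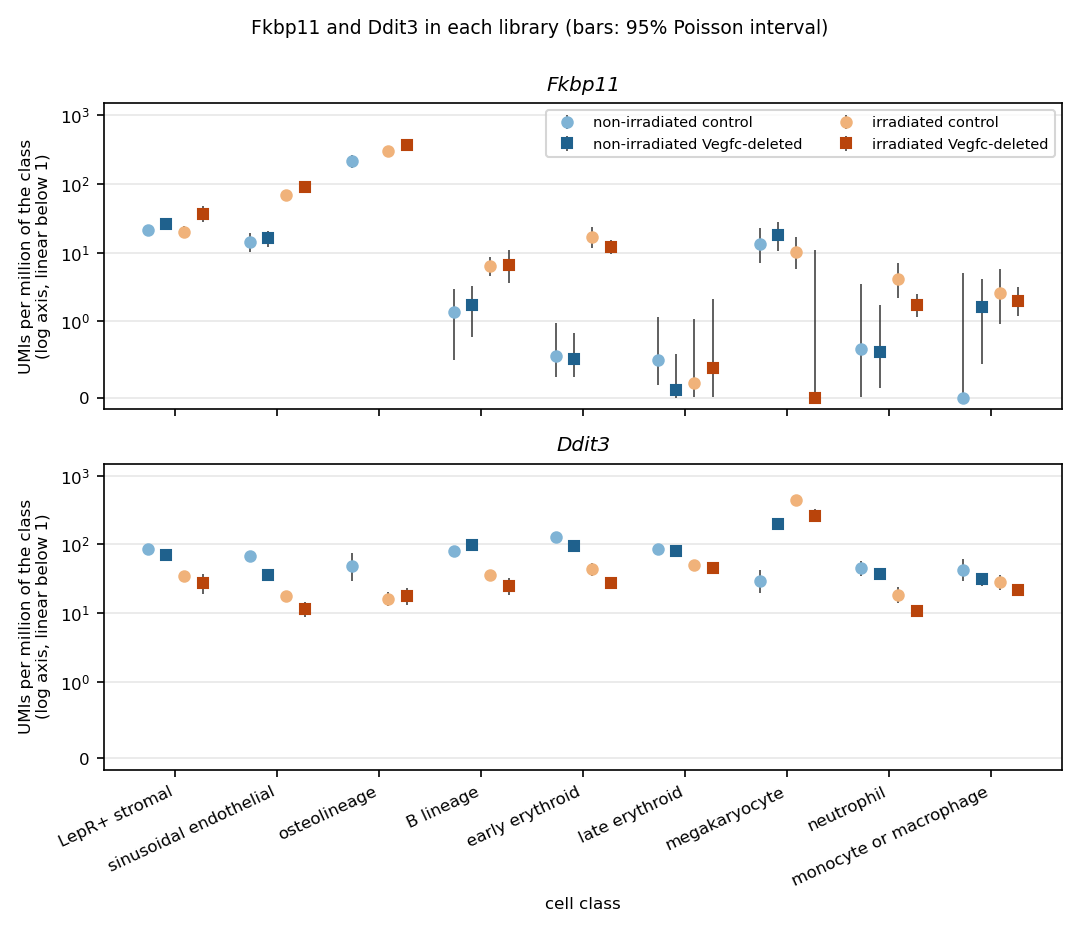
Fkbp11 (top) and Ddit3 (bottom) in CPM (log axis, linear below 1) in 9 cell classes, 1 point per library with at least 10 cells and bars for the 95% Poisson interval. Fkbp11 is highest in osteolineage cells (212 to 363 CPM). Its irradiated points stand apart in sinusoidal endothelial and early erythroid cells and, at low levels (1.35 to 6.60 CPM over the libraries), in B-lineage cells. The irradiated points of Ddit3 are lower in all classes shown but megakaryocytes.

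Herpud1 in B-lineage cells, its highest class without irradiation, was 508, 432, 171 and 98.6 CPM. The irradiated libraries were lower by log2 ratios of -1.57 (-1.67 to -1.46) and -2.13 (-2.34 to -1.93). Here 2 of 10 genes measured were higher (background 21.6%) and 3 lower (background 22.4%) in control mice, and 1 of 9 higher (background 14.8%) and 3 lower (background 28.4%) in Vegfc-deleted mice. Osteolineage cells, compared in control mice only for want of cells, had Hspa5 at 820 and 401 CPM without and with irradiation (log2 ratio -1.03) and Fkbp11 at 212 and 306 CPM (0.52). Of 7 genes measured there 0 were higher (background 23.3%) and 4 lower (background 20.5%), from 22 and 148 cells. The markers of the class moved in the same comparison, with Col1a1 at 52886 and 145697 CPM, Bglap at 10343 and 30538 CPM and Dmp1 at 727 and 231 CPM, and median depth went from 16661.5 to 33217.5 UMIs. Their part in the result was not tested.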

How the data were processed

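Single-cell 3' RNA was read with 10x Chromium chemistry. The deposited tables hold raw UMI counts per gene and barcode, whole numbers with no normalization by the authors. Cell Ranger 2.1.1 and the mm10 build are named per the submitters' processing notes, whereas the matrix header records software 3.1.0, per the file headers. Its gene annotation was not given in the sources used here.

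Cell barcodes with under 500 genes or over 10% mitochondrial UMIs were left out (2071, 2200, 1175 and 895), as were the highest Scrublet doublet scores at 0.8% per 1000 barcodes (444, 479, 212 and 211). Scaled log counts of 2000 variable genes were reduced to 40 components and clustered together without batch correction (scanpy 1.11.5, 20 neighbours, leidenalg 0.10.2, resolution 1, seed 7). Clusters were named from 22 marker lists, scored as the median over markers of each cluster's log2 level above the middle cluster. A name needed a score of 2, a margin of 1 over other compartments and 3 detected markers. A cluster led by osteoclast genes was kept unnamed by a rule added after clusters were seen.

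Within each class and library, UMI counts were added up and scaled to the class total (CPM). CPM carry exact Poisson and ratios exact conditional intervals at 95%, computed with scipy 1.17.1, and log2 ratios used a prior of 0.5 counts. PCR and capture add error that these intervals do not cover. The ratio code was tested on simulated data. Trimmed-mean (TMM) factors came from edgeR 4.0.16, with no edgeR test. Likeness used log2(CPM + 10) over genes with at least 50 CPM in a class. Genes beside the 10 were named where they differed by 1.5-fold in both genotypes in either niche class, at most 6 a list. The 10 genes and all lists were chosen with earlier results of these data known.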

Additional observations from a re-analysis of the deposited data

Results flagged for a closer look

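Hspa5 in basophils or mast cells moved in opposite directions with irradiation in the 2 genotypes. It was 1163 CPM in non-irradiated and 680 CPM in irradiated controls (log2 ratio -0.77), against 672 and 1077 CPM in Vegfc-deleted mice (0.68). The difference between the genotypes was not tested, since each value is 1 library. The class held 216, 26, 35 and 25 cells.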

How the results depend on the processing

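Of 158 recomputed counts of the 10 genes, 146 stayed within 1.5 times the reported one. For 760 recomputed log2 ratios in sinusoidal endothelial and LepR+ stromal cells, changes of sign were counted for called ratios only. Of the called ratios 1 changed sign, that of Ddit3 between genotypes with irradiation in sinusoidal endothelial cells (0.07 with cells thinned to 1500 UMIs). Another 64 ratios left the counting interval of the reported ratio, 39 of them among the 80 ratios from thinned cells. Ratios under 1.5-fold changed sign under some alternatives too. In sinusoidal endothelial cells the irradiation ratio of Creld2 in control mice (0.53) went down to -0.13. That of Sdf2l1 in Vegfc-deleted mice (0.28) went down to -0.6. TMM scaling left 2 genes higher with irradiation in Vegfc-deleted mice in sinusoidal endothelial cells (4 reported) and 1 in LepR+ stromal cells (2 reported). Thinning gave 1 gene lower between genotypes with irradiation in sinusoidal endothelial cells, and in LepR+ stromal cells 0 higher with irradiation in Vegfc-deleted mice, 1 higher between genotypes without and 1 with irradiation, and 2 lower with irradiation. Without doublet removal 0 genes were higher between genotypes without irradiation in sinusoidal endothelial cells, 1 was higher with irradiation in LepR+ stromal cells of control mice, and 2 were highest in plasma cells, a name that then fell on another, larger set of cells. With immunoglobulin, haemoglobin and granule genes out of the total 9 were highest there, a count with no share over all genes to set beside it. Leaving out clusters of shallow cells, an alternative chosen after seeing the data like that on shared barcodes, gave 2 lower between genotypes with irradiation in LepR+ stromal cells. The causes were not tested. No paired analysis was possible because each group has 1 library, and no library could be left out. Depth limits Fkbp11, with 44 and 59 counts in non-irradiated sinusoidal endothelial cells.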

Other observations

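A cluster led by osteoclast genes, with Ctsk at 2563 CPM and Acp5 at 2416 CPM in the irradiated Vegfc-deleted library, belonged to no named class. It held 42 cells of that library, 5 of the irradiated control library and 0 of the others. In the 42 cells, with a median of 31198.5 UMIs, Hspa5 was 567 CPM, Manf 206 CPM, Xbp1 97.8 CPM, Herpud1 58.5 CPM, Fkbp11 23.7 CPM, Dnajb9 15.6 CPM and Ddit3 8.15 CPM. In the plasma cells too few to be compared, Herpud1 was 523 CPM in 4 cells of the non-irradiated control library, 1287 CPM in 3 cells of the non-irradiated Vegfc-deleted library and 345 CPM in 4 cells of the irradiated control library, each a value with no replicate.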
